A study of Mus musculus with 36 samples.

Results

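Control tumors of the 66cl4 mouse mammary carcinoma line were compared between immune-deficient NSG hosts and immune-competent BALB/c hosts, with 3 tumors per host, which are 6 of the 36 tumors measured in the series. The 6 tumors were chosen by their labels for cell line, host and control shRNA, and no expression value entered the choice. NSG mice are NOD/SCID mice that also lack the receptor chain *Il2rg*, an allele that the labels spell Ifrg2r -/-, and the BALB/c mice were BALB/cJ. All hosts were females of 6 to 8 weeks, and in both hosts 10000 66cl4 cells with a retroviral control shRNA were injected into the mammary fat pad and the tumors taken on day 28. Of the other tumors, 12 66cl4 tumors labelled BPTF KD (6 in NSG and 6 in BALB/c mice, made with different shRNAs against *Bptf*) and 6 67NR control tumors (3 per host, taken on day 21 after injection of 100000 cells) gave separate comparisons of the same hosts.

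NSG mice combine a *Prkdc* mutation, which stops the gene rearrangement that T and B cells need, with loss of the common cytokine receptor gamma chain, without which NK cells do not develop. They keep macrophages, neutrophils and dendritic cells, some with reduced function. The 66cl4 line came from a BALB/c tumor, so that it matches BALB/c hosts in strain and NSG hosts do not match it. A bulk tumor array reads cancer cells, immune infiltrate, vessels, fat and any muscle of the body wall at once, so fewer cells of a type and less RNA per cell cannot be told apart.

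Levels are log2 values on the scale of RMA, which summarizes the probes of each gene, and a difference is NSG minus BALB/c, so that negative values are lower in NSG tumors. Array medians of the 6 tumors lay between 7.08 and 7.19. Correlations between tumors of 1 host were 0.985 to 0.991 in NSG and 0.983 to 0.990 in BALB/c, and those between hosts were 0.949 to 0.985, with BALB/c replicate 1 nearest to the NSG tumors (0.980 to 0.985). The epithelial keratin *Krt8* was at 13.07, 13.09 and 13.39 in NSG and 13.02, 12.94 and 13.06 in BALB/c tumors, a high level in every tumor of both hosts. *Prkdc* RNA, which the scid allele need not lower, was at 7.62, 7.84 and 7.51 in NSG and 7.57, 7.50 and 7.56 in BALB/c tumors (adjusted p = 0.572), and *Il2rg* was not analysed here. The 3′ minus 5′ difference of the *Gapdh* control probes, a reading of RNA integrity, was 0.00 to 0.01 in NSG and 0.14 to 0.33 in BALB/c tumors, without overlap, while that of actin overlapped (1.23 to 1.38 in NSG and 0.80 to 1.31 in BALB/c). The covariate fitted for RNA integrity was the mean of both readings, which overlapped between hosts (0.61 to 0.69 in NSG and 0.47 to 0.82 in BALB/c), so that the part of the *Gapdh* reading in the results was not tested. Array batches were not given in the sources used here, and strain background, immune deficiency and any separate handling of the hosts cannot be told apart.

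Of 12394 genes, 156 were lower (1.26% of those tested) and 158 higher (1.27%) in NSG tumors at an adjusted p under 0.05 by limma. At an unadjusted p under 0.05 there were 3780, and the methods' t-test left none after adjustment (2789 unadjusted). The median difference over all genes was -0.02. Counts of calls in the gene lists below are to be read beside these shares, under which a short list without a call says little. Skeletal muscle genes stood out among the lower ones and are described apart, at the end. Genes that followed muscle in the other 30 tumors (correlation of at least 0.7 with the mean of the muscle list) were set aside with the 72 muscle genes measured, 149 genes in all. This left 133 genes lower and 158 higher. Genes that ran opposite to muscle were not set aside, such as *Rbp7*, higher in NSG, with a correlation of -0.78. The 158 were thus not cleared of a relation to muscle. All 291 kept their direction when each tumor was left out in turn. That adds no support, since they were called in these same tumors, and most calls rested on having 3 tumors per host. Of the 291, 28 were still called without NSG replicate 1, 22 without NSG replicate 2, 31 without NSG replicate 3, 82 without BALB/c replicate 2 and 43 without BALB/c replicate 3, against 291 without BALB/c replicate 1. The 18 called in all 6 of these runs, picked out after their values were seen, were *Apoc2*, *Ccl24*, *Cd3g*, *Ctla4*, *Fasl*, *Gzma*, *Ifi44l*, *Klrc1*, *Nkg7* and *Trbv1*, all lower in NSG, and *Epsti1*, *L3hypdh*, *Mpp7*, *Pacc1*, *Rab7b*, *Ralgps2*, *Trim34a* and *Tspan32*, all higher.

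Cytotoxic granule genes had the largest median decrease of the 30 gene lists. Of 17 measured members, 11 fell in NSG tumors, against 1.26% of all genes, and 6 did not pass. Their median difference was -1.76 against -0.02 over all genes. Granzymes are serine proteases that T and NK cells release into target cells, and 7 of the 11 were *Gzma* to *Gzmg*. *Gzmd* was at 2.88, 3.13 and 3.14 in NSG and 9.45, 7.96 and 11.81 in BALB/c tumors (-6.69 ± 0.84 SE, 103-fold, adjusted p = 0.0250 by limma). *Gzmg* stood at 3.56, 3.34 and 3.45 in NSG and 9.27, 7.85 and 11.76 in BALB/c tumors (-6.18 ± 0.86 SE, adjusted p = 0.0299). For *Gzmd* the range between tumors was 0.26 in NSG and 3.85 in BALB/c, and the NSG tumors lay below 5.50, the 25th percentile of gene means, where the array resolves little. The table gives no detection call, so a fold is one of normalized values.

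Of these granzymes, *Gzmb* to *Gzmg* are neighbours on chromosome 14, in the order *Gzme*, *Gzmd*, *Gzmg*, *Gzmn*, *Gzmf*, *Gzmc* and *Gzmb*. The BALB/c tumors kept 1 order for *Gzmf* (8.84, 6.71 and 10.52), *Gzme* (8.63, 7.11 and 10.67) and *Gzmc* (8.02, 5.91 and 9.29), with replicate 2 lowest and replicate 3 highest, as for *Gzmd* and *Gzmg*. In NSG tumors the same 3 genes were between 3.67 and 4.37, and their differences were -4.75, -4.59 and -3.99 (adjusted p = 0.0417, 0.0415 and 0.0445). *Gzmn*, which lies between *Gzmg* and *Gzmf* and was picked after its values were seen, was at 3.53, 3.56 and 3.67 in NSG and 3.43, 3.75 and 3.58 in BALB/c tumors. It was thus at the dim end in both hosts. *Gzmd* and *Gzme* were read from probe sets that can bind related transcripts, so that single members of this family are uncertain, although a separate *Gzmd* probe set gave -6.51.

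The 5 neighbours *Gzmc* to *Gzmg* share sequence before their start, which is printed for comparison between them and is no evidence of a cause. Their order of BALB/c tumors is not particular to them, since *Gzmb* kept it too (8.24, 7.29 and 9.47). Over the 250 bases before the start, the RefSeq promoters (GRCm38.p6) of *Gzmc* to *Gzmg* were 79.2% to 95.2% identical in pairs, and 56.4% to 60.8% identical to that of *Gzmb*. The longest run found in all 5, 20 bases long and in capitals below, occurred in 5 of 27018 mouse promoters, which are these 5. All lie on the minus strand, at chr14:56120641-56120735 (Gzme), chr14:56132608-56132702 (Gzmd), chr14:56159610-56159704 (Gzmg), chr14:56211443-56211537 (Gzmf) and chr14:56234668-56234762 (Gzmc).
Gzme: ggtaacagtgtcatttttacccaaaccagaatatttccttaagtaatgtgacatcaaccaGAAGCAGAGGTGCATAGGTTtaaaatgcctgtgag
Gzmd: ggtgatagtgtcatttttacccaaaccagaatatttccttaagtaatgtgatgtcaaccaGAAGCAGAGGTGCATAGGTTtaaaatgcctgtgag
Gzmg: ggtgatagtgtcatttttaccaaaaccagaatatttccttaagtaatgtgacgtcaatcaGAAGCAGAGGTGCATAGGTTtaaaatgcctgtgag
Gzmf: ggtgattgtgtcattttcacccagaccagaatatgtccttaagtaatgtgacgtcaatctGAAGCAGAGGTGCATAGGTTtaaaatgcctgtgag
Gzmc: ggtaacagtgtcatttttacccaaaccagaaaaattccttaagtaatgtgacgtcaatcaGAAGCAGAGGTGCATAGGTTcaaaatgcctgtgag

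*Gzma*, at a locus of its own, was at 4.49, 4.99 and 4.99 in NSG and 9.36, 8.01 and 8.58 in BALB/c tumors (-3.83 ± 0.33 SE, adjusted p = 0.00724). *Gzmb*, the granzyme best known for triggering apoptosis in targets, was at 4.79, 4.69 and 4.80 in NSG and 8.24, 7.29 and 9.47 in BALB/c tumors (-3.57 ± 0.48 SE, adjusted p = 0.0283). Both granzymes separated the hosts in all 36 tumors, with *Gzma* between 4.23 and 5.04 in 18 NSG and between 8.01 and 12.71 in 18 BALB/c tumors. Those 36 include the 6 in which the genes were called. The share of all genes that separate so was not counted, here or for the genes below. *Fasl*, the death ligand of cytotoxic cells, was at 3.69, 3.77 and 3.77 in NSG and 5.34, 5.69 and 5.49 in BALB/c tumors (-1.76 ± 0.12 SE, adjusted p = 0.00278, and -0.48 from its second probe set). Perforin (*Prf1*), which lets granzymes into the target, did not pass at 5.98, 6.05 and 6.12 in NSG and 7.14, 6.91 and 8.70 in BALB/c tumors (adjusted p = 0.0767). *Ifng*, the cytokine of activated T and NK cells, was dim in both hosts, at 3.82, 3.97 and 4.12 in NSG and 3.80, 4.27 and 3.93 in BALB/c tumors (adjusted p = 0.918). When NSG replicate 1, 2 or 3 was left out, *Gzmd* missed the threshold (adjusted p = 0.0901, 0.0748 and 0.0856), and so did *Gzmb* (0.0952, 0.0924 and 0.0961), whereas *Gzma* and *Fasl* passed in all 6 runs.

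**Figure D1:**
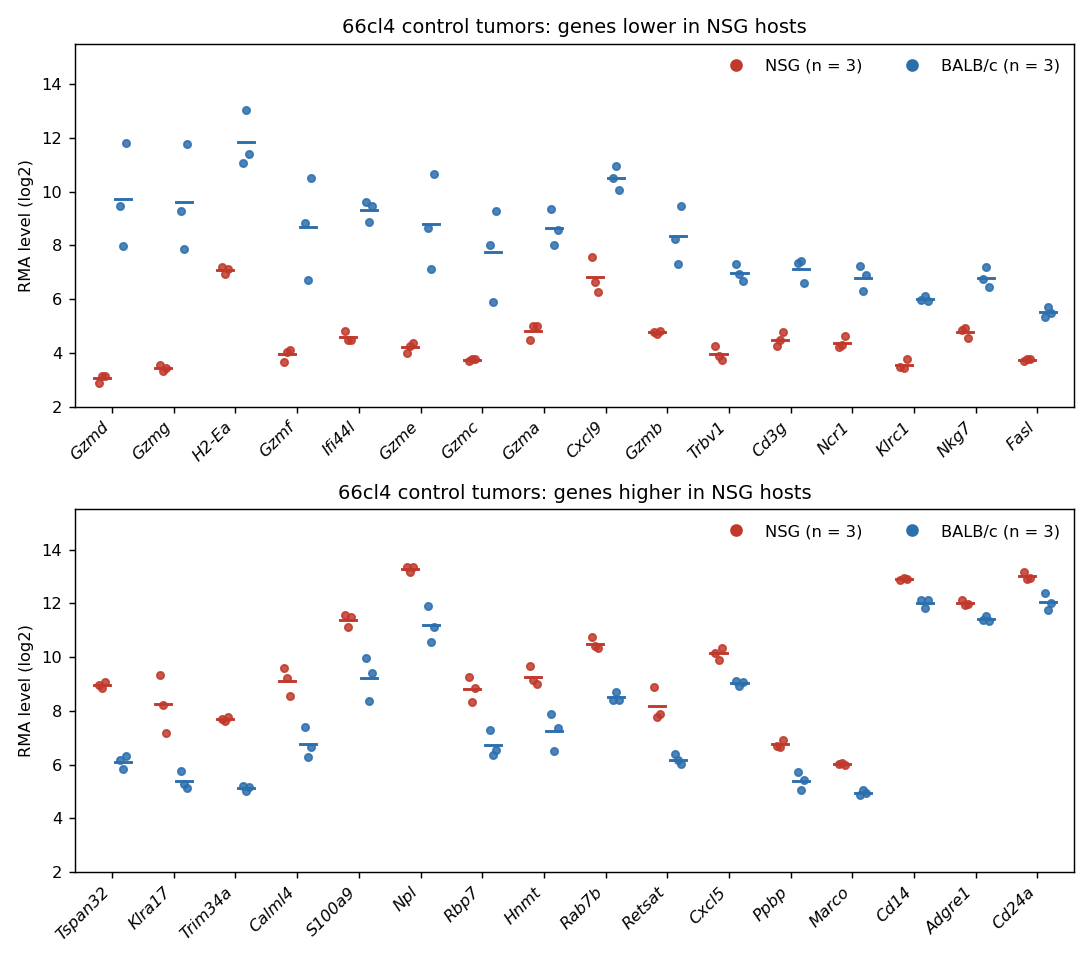
RMA levels (log2) of named genes in each 66cl4 control tumor, NSG (red, left) and BALB/c (blue, right), with lines at the means of 3 tumors. The 10 largest decreases and T and NK cell genes are above, the 10 largest increases with chemokines, macrophage genes and *Cd24a* below. All were chosen as called in these tumors, so that their lack of overlap between hosts follows from the choice. Over all genes 18.5% were lower and 16.6% higher without overlap.

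Of 20 T cell genes measured, 7 were lower in NSG tumors, against 1.26% of all genes, and 13 did not pass (median -0.55). *Trbv1*, a variable segment of the T cell receptor beta chain, was at 4.25, 3.90 and 3.72 in NSG and 7.29, 6.95 and 6.67 in BALB/c tumors (-3.01 ± 0.20 SE, adjusted p = 0.00266). Its probe set can bind related transcripts. Over the whole series its hosts overlapped, at 3.42 to 7.45 in 18 NSG and 6.67 to 11.90 in 18 BALB/c tumors. *Cd3g*, a signalling chain of the receptor, was at 4.24, 4.48 and 4.77 in NSG and 7.36, 7.43 and 6.61 in BALB/c tumors (-2.64 ± 0.25 SE, adjusted p = 0.0102). The other 5 were *Cd3d* (-1.06), *Cd2*, an adhesion molecule (-1.50), *Cd5* (-0.69), the costimulator *Icos* (-0.88) and the adaptor *Sh2d1a* (-0.89). The coreceptors of T cell classes did not pass, *Cd8a* at 5.15, 5.38 and 5.20 in NSG and 5.59, 5.61 and 5.40 in BALB/c tumors (adjusted p = 0.158) and *Cd4* with a difference of -0.24 (adjusted p = 0.241). Among checkpoint and regulatory T cell genes, 3 of 18 were lower, *Ctla4*, an inhibitory receptor (-1.32 ± 0.13 SE, adjusted p = 0.0102), *Tnfrsf18* (-1.29) and *Pdcd1* (-0.77), while *Foxp3* differed by -0.19 (adjusted p = 0.421).

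NK cell genes gave 6 lower, against 1.26% of all genes, and 13 that did not pass of 19 measured (median -0.47). *Ncr1*, the natural cytotoxicity receptor that marks mouse NK cells, was at 4.22, 4.29 and 4.63 in NSG and 7.22, 6.29 and 6.89 in BALB/c tumors (-2.42 ± 0.24 SE, adjusted p = 0.0112). *Klrc1*, an inhibitory receptor subunit, was at 3.48, 3.45 and 3.76 in NSG and 5.98, 6.11 and 5.93 in BALB/c tumors (-2.44 ± 0.13 SE, adjusted p = 0.000790, and -0.83 from its second probe set). The granule protein *Nkg7* (-2.03), *Klrg1* (-1.80), *Klra2* of the Ly49 receptors (-2.03) and *Il2rb*, a receptor chain for interleukins that signals with the gamma chain (-0.92), were also lower. *Ncr1* missed the threshold without 1 tumor in 1 of 6 runs (highest adjusted p = 0.0538), and *Klrc1* passed in all 6. Not all receptors of this group were lower, as *Klrb1b* was at 8.04, 6.62 and 5.63 in NSG and 5.28, 4.98 and 4.63 in BALB/c tumors without passing (adjusted p = 0.0854). Of 5 GIMAP genes, GTPases of lymphocytes, *Gimap7* (-2.07 ± 0.25 SE, adjusted p = 0.0215) and *Gimap3* (-0.78) were lower.

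None of 19 B cell genes measured passed by limma (4 at an unadjusted p under 0.05, median -0.08). That is near the shares of all genes, 1.26% lower and 1.27% higher, with 3780 of 12394 at an unadjusted p under 0.05. *Ms4a1*, which encodes CD20, was dim in both hosts at 4.05, 4.21 and 3.76 in NSG and 4.33, 4.59 and 4.11 in BALB/c tumors (adjusted p = 0.230). *Jchain* of plasma cells was at 3.94, 3.65 and 3.76 in NSG and 5.66, 4.86 and 3.82 in BALB/c tumors, with BALB/c replicate 3 at the NSG level (adjusted p = 0.156).

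Genes for MHC class II, which presents peptides to helper T cells, had a median difference of -1.02, but 1 of 11 measured passed. Over all genes 1.26% were lower. The class II gene that passed, *H2-Ea*, encodes the alpha chain of the I-E molecule, which NOD mice are known not to make. It was at 7.19, 6.95 and 7.12 in NSG and 11.07, 13.04 and 11.41 in BALB/c tumors (-4.75 ± 0.47 SE, adjusted p = 0.0102, and 0.0530 without NSG replicate 2). Across the series it separated 18 NSG tumors (6.48 to 7.67) from 18 BALB/c tumors (10.29 to 14.36), the tumors of the call included. Its other probe sets gave -8.81 and -0.28, so that the size depends on the probes. *Cd74*, the invariant chain that guides class II assembly, was at 7.98, 8.08 and 8.58 in NSG and 9.23, 12.14 and 10.21 in BALB/c tumors (-2.31 ± 0.66 SE, adjusted p = 0.0770), where BALB/c replicate 2 was highest. *H2-Eb1*, the I-E beta chain, was at 9.27, 9.0 and 9.73 in NSG and 11.06, 13.19 and 11.50 in BALB/c tumors (adjusted p = 0.0514). Groups did not overlap for either gene, and 8 of the 11 class II genes were lower without overlap, against 18.5% of all genes. *H2-Aa*, the I-A alpha chain, was high in both hosts, with NSG tumors at 12.31, 11.64 and 11.91 against 12.39, 13.70 and 12.44 in BALB/c tumors (adjusted p = 0.152).

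Class II promoters carry a Y box, a CCAAT motif bound by the factor NF-Y, and the windows of *H2-Aa* and *H2-Eb1* are given with CCAAT or its reverse, ATTGG, in capitals. Either orientation was found in 7 of the 10 class II promoters matched of 14 genes listed, and in 34.5% of all 27018 promoters within 250 bases before the start. The windows are at chr17:34287847-34287916 (minus strand) and chr17:34305763-34305856 (plus strand).
H2-Aa: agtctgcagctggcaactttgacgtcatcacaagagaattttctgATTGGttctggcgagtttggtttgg
H2-Eb1: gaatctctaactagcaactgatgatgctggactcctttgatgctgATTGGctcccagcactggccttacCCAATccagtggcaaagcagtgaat

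Interferon gamma response genes had a median of -0.56, with 4 of 28 lower, against 1.26% of all genes, and none higher. *Cxcl9*, a chemokine that draws activated T and NK cells through *Cxcr3*, was at 7.57, 6.63 and 6.28 in NSG and 10.51, 10.97 and 10.08 in BALB/c tumors (-3.69 ± 0.36 SE, adjusted p = 0.0102, and 0.0530 without NSG replicate 2). *Cxcl11* and *Cxcl10*, which share that receptor, differed by -2.26 ± 0.36 SE and -0.96 ± 0.18 SE (adjusted p = 0.0390 and 0.0441), and a second *Cxcl11* probe set gave -0.27. The fourth was *Psmb10*, a subunit of the immunoproteasome, which cuts peptides for MHC class I (-0.74 ± 0.14 SE, adjusted p = 0.0457). The class I list had 2 of 20 lower, *Psmb10* and *Tapbp*, the loading factor tapasin, at 8.90, 9.08 and 9.14 in NSG and 10.01, 11.15 and 10.40 in BALB/c tumors (adjusted p = 0.0441, with -0.41 from its second probe set). No type I interferon response gene of 27 passed by limma (9 at an unadjusted p under 0.05, median -0.05). Over all genes 1.26% were lower and 1.27% higher, with 3780 of 12394 at an unadjusted p under 0.05. *Ifi44l*, an interferon-inducible gene outside these lists, was nonetheless at 4.83, 4.49 and 4.47 in NSG and 9.62, 8.86 and 9.48 in BALB/c tumors (-4.72 ± 0.22 SE, adjusted p = 0.000468). It separated the hosts in all 36 tumors, those of the call included (4.16 to 5.39 in NSG and 8.86 to 12.19 in BALB/c). Its other probe sets gave -4.57 and -0.60.

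Promoters of this list were searched for GAAANNGAA, part of the elements that interferon regulatory factors bind, on both strands and in the same 250 bases. It was found in 11 of 22 promoters matched of 33 genes listed and in 7.2% of all promoters. The windows of *Cxcl9* (chr5:92328221-92328279, minus strand) and *Cxcl10* (chr5:92349069-92349127, minus strand) show the motif in capitals.
Cxcl9: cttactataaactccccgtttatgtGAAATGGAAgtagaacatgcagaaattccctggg
Cxcl10: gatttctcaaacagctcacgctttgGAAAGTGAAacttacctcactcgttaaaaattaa

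Chemokines did not move as 1 group, with 6 lower and 2 higher of 52 measured (median 0.03). Over all genes 1.26% were lower and 1.27% higher. The lower ones were *Cxcl9*, *Cxcl10*, *Cxcl11*, the lymphocyte chemokine *Xcl1* (-1.23), the receptor *Cxcr6* of T and NK cells (-1.47) and *Ccl24*, an attractant of eosinophils. *Ccl24* was at 6.73, 6.40 and 7.23 in NSG and 9.59, 8.97 and 9.23 in BALB/c tumors (-2.48 ± 0.24 SE, adjusted p = 0.0102). The higher ones attract neutrophils through *Cxcr2*. *Cxcl5* was at 10.16, 9.91 and 10.36 in NSG and 9.12, 8.93 and 9.09 in BALB/c tumors (1.10 ± 0.14 SE, adjusted p = 0.0277), and *Ppbp* differed by 1.36 ± 0.18 SE (adjusted p = 0.0277). *S100a9*, an abundant neutrophil protein, was the 1 neutrophil gene of 24 to pass, at 11.58, 11.12 and 11.51 in NSG and 9.96, 8.37 and 9.40 in BALB/c tumors (2.16 ± 0.38 SE, adjusted p = 0.0417). Its partner *S100a8* was at 11.34, 10.74 and 11.09 in NSG and 9.89, 8.59 and 9.74 in BALB/c tumors and did not pass (adjusted p = 0.0533). With 1.27% of all genes higher, 1 call among 24 says little about neutrophils.

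Macrophage genes were split. Of 38 measured, 3 were higher and 2 lower in NSG tumors (median -0.01), against 1.27% higher and 1.26% lower of all genes. The scavenger receptor *Marco* was at 6.03, 6.07 and 5.99 in NSG and 4.88, 5.05 and 4.93 in BALB/c tumors (1.08 ± 0.11 SE, adjusted p = 0.0102). *Cd14*, a receptor for bacterial lipopolysaccharide, was at 12.88, 12.95 and 12.90 in NSG and 12.13, 11.84 and 12.12 in BALB/c tumors (0.88 ± 0.12 SE, adjusted p = 0.0293), and *Adgre1*, a surface receptor that marks mouse macrophages, differed by 0.61 ± 0.11 SE (adjusted p = 0.0441). The lower genes were *Fcgr2b*, the inhibitory Fc receptor (-0.92 ± 0.10 SE, adjusted p = 0.0172), and *Arg1*, which breaks down arginine. *Arg1* was at 10.85, 10.97 and 9.80 in NSG and 12.22, 12.19 and 12.55 in BALB/c tumors (-1.78 ± 0.31 SE, adjusted p = 0.0417). *Ptprc*, the CD45 antigen of all leukocytes, did not pass, at 11.99, 12.11 and 11.91 in NSG and 11.90, 11.96 and 11.86 in BALB/c tumors (0.10 ± 0.11 SE, adjusted p = 0.588).

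The largest increases in NSG tumors fell in no single list. *Tspan32*, a tetraspanin of blood cells, was at 8.98, 8.84 and 9.09 in NSG and 6.17, 5.82 and 6.32 in BALB/c tumors (2.87 ± 0.16 SE, adjusted p = 0.000790). *Trim34a*, of the tripartite motif family, was at 7.71, 7.63 and 7.79 in NSG and 5.22, 5.01 and 5.15 in BALB/c tumors (2.58 ± 0.11 SE, adjusted p = 0.000468). Both were called in all 6 runs. *Trim34a* separated the hosts in all 36 tumors, those of the call included (5.89 to 7.79 in NSG and 4.25 to 5.71 in BALB/c). Its second probe set gave -0.25 all the same. *Klra17*, a Ly49 receptor of myeloid and plasmacytoid cells, was at 9.35, 8.21 and 7.16 in NSG and 5.76, 5.27 and 5.13 in BALB/c tumors (2.85 ± 0.50 SE, adjusted p = 0.0417). *Rab7b*, a GTPase of late endosomes, was at 10.76, 10.43 and 10.34 in NSG and 8.42, 8.72 and 8.39 in BALB/c tumors (2.0 ± 0.16 SE, adjusted p = 0.00449). *Npl*, which breaks down sialic acid, was at 13.34, 13.16 and 13.37 in NSG and 11.91, 10.55 and 11.11 in BALB/c tumors (2.10 ± 0.31 SE, adjusted p = 0.0346). The remaining ones were *Calml4* (2.35), the retinol binding gene *Rbp7* (2.09), the histamine-degrading enzyme *Hnmt* (2.01) and *Retsat*, a retinol saturase (1.99, with -0.33 from its second probe set).

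Few genes of other compartments passed. Of 46 fibroblast and matrix genes, *Fn1* (fibronectin) was lower, at 11.71, 11.44 and 11.43 in NSG and 12.51, 13.54 and 13.13 in BALB/c tumors (-1.53 ± 0.25 SE, adjusted p = 0.0390), and 45 did not pass, while 17 were lower without overlap, against 18.5% of all genes, and the median was -0.29. The mesenchymal factor *Snai2* (-0.91), the secreted chaperone *Clu* of the complement list (-1.87) and 3 of 31 cell cycle genes, *Cdc6* (-0.94), *Rrm2* (-0.93) and *Aurkb* (-0.73), were lower. *Cd24a*, a surface antigen of the dendritic list that tumor and myeloid cells also carry, was higher (0.95 ± 0.18 SE, adjusted p = 0.0457). Vessel genes (35 measured), adipocyte genes (21), epithelial genes (29), milk genes (18), red cell genes (10) and hypoxia and glycolysis genes (28) had no call by limma. At an unadjusted p under 0.05 they had 13, 3, 2, 2, 2 and 9 genes, with medians of -0.26, 0.22, 0.20, 0.13, 0.10 and -0.11. Over all genes 1.26% were called lower and 1.27% higher, with 3780 of 12394 unadjusted, so that lists without a call say little about their cells. *Adipoq*, the adiponectin of fat cells, varied within hosts, at 11.71, 8.76 and 7.68 in NSG and 8.67, 7.99 and 6.27 in BALB/c tumors (adjusted p = 0.303). *Bptf*, the gene knocked down elsewhere in the series, was at 9.15, 9.18 and 9.14 in NSG and 9.50, 10.61 and 9.89 in BALB/c control tumors (-0.84 ± 0.26 SE, adjusted p = 0.0878), lower without overlap, as were 18.5% of all genes, but not past the threshold (16.6% of all genes were higher without overlap). The other *Bptf* probe sets gave -1.58, -1.31 and -0.42, so that the size depends on the probes.

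None of 25 inflammatory cytokine genes, 18 mast cell and eosinophil genes and 6 NURF genes passed by limma either (14, 3 and 2 at an unadjusted p under 0.05). Of 19 genes of gamma chain cytokine signalling 1 did, *Il2rb*. Over all genes 1.26% were called lower and 1.27% higher, with 3780 of 12394 unadjusted.

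**Figure D2:**
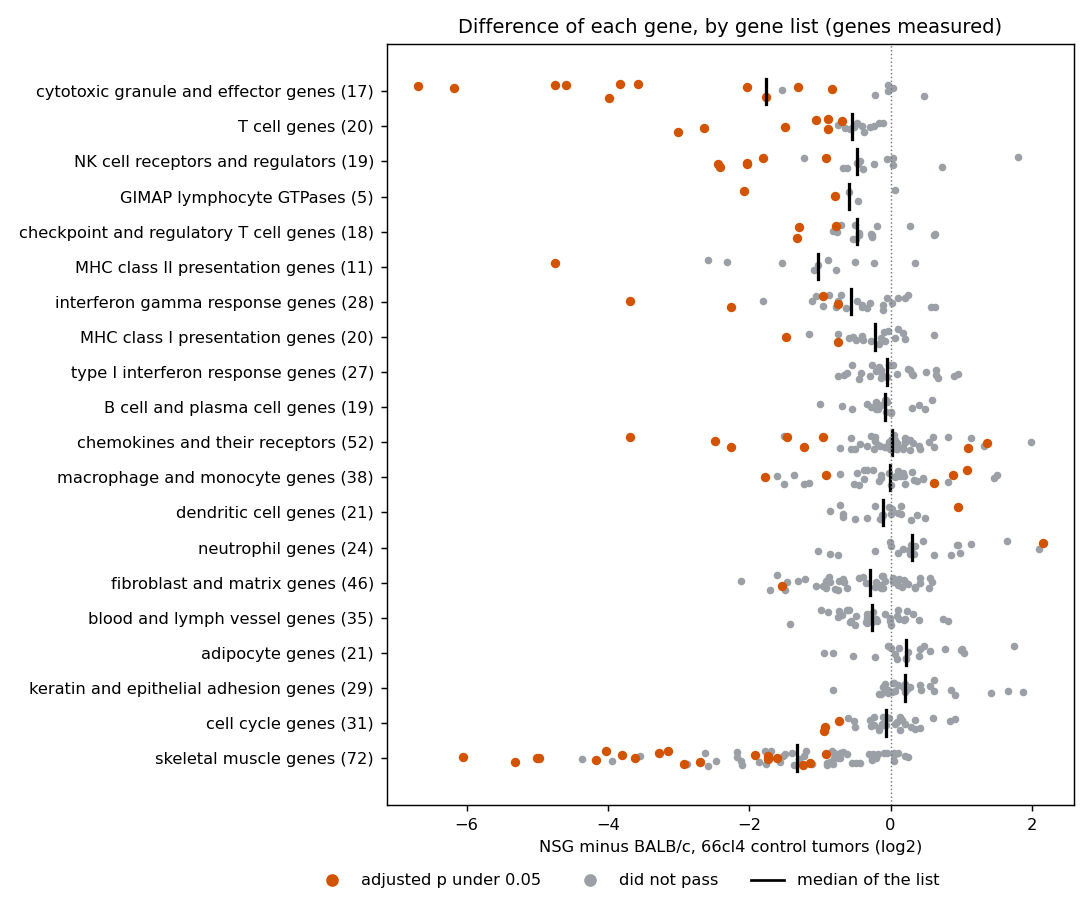
Difference of each measured gene between NSG and BALB/c hosts in 66cl4 control tumors (log2, negative is lower in NSG), by gene list with the number measured. Orange points passed an adjusted p under 0.05, grey points did not, and bars are list medians, lowest for cytotoxic granule genes (-1.76) and skeletal muscle genes (-1.33).

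The same hosts were compared in separate tumors. In 66cl4 BPTF KD tumors, 6.38% of genes were lower and 4.67% higher in NSG hosts, and in 67NR control tumors 3.93% were lower and 3.65% higher. Of the 291 genes called outside muscle in 66cl4 control tumors, 286 (98.3%) had the same direction in the KD tumors and 186 (63.9% of the 291 and 13.6% of the 1370 KD calls) were also called, with none called the other way. Over all genes 70.5% had the same direction. In 67NR control tumors, 192 of the 291 (66.0%) had the same direction, against 50.8% over all genes, 76 were also called and 15 were called the other way. Medians of the T cell list were negative in each comparison, at -0.55 in 66cl4 control, -0.84 in 66cl4 BPTF KD and -0.78 in 67NR control tumors, as were those of the NK cell list (-0.47, -0.79 and -1.05). *Cd3g* differed by -2.64 in 66cl4 control, -4.79 in 66cl4 BPTF KD and -3.50 in 67NR control tumors (adjusted p = 0.0102, 1.74e-07 and 0.0113). *Ifi44l* differed by -4.72, -5.30 and -5.18, the same order of size in each.

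**Figure D3:**
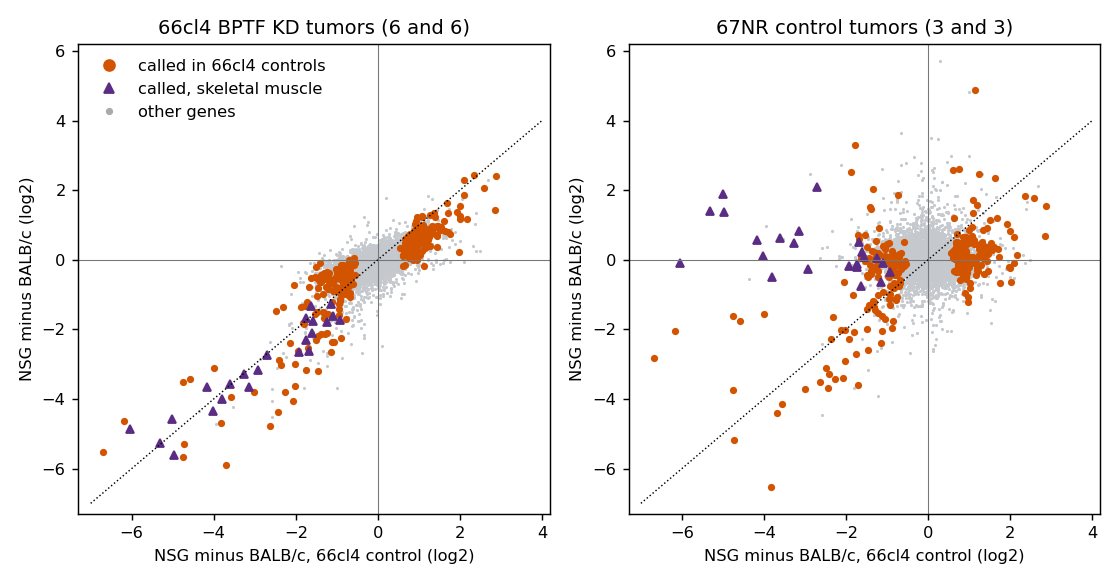
Difference between NSG and BALB/c hosts (log2) of 12394 genes in 66cl4 control tumors (x axis) and in separate tumors (y axis), 66cl4 BPTF KD on the left and 67NR control on the right. Orange points and purple triangles are genes called in 66cl4 controls, and the dotted line marks equal differences. The called genes keep their sign in 286 of 291 cases outside muscle on the left and 192 of 291 on the right.

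The difference between host effects was then tested. Between 66cl4 control and 66cl4 BPTF KD tumors it passed for none of 12394 genes (0%; smallest adjusted p = 0.188, 1476 genes at an unadjusted p under 0.05), which does not show that the effects were alike. The genes with the smallest p were *Klrc1* (-2.44 in control and -4.37 in KD tumors), *Gimap7* (-2.07 and -4.05) and *Psmb9*, a second immunoproteasome subunit (-0.41 and -1.73). Class II genes, of which 1 was lower in control tumors, had 10 of 11 lower in KD tumors (median -2.05). Interferon gamma response genes had 22 of 28 lower in KD tumors (median -1.46), where 6.38% of all genes were lower. With 3 tumors per host in controls and 6 in KD tumors, counts of calls are not comparable between them.

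Between 66cl4 and 67NR control tumors, 13.3% of genes (1648) differed in host effect, 881 with a higher and 767 with a lower value in 66cl4. A fit of all 36 tumors called 74. *Arg1* had opposite signs, at -1.78 in 66cl4 and 3.31 in 67NR tumors (difference -5.09, adjusted p = 0.00239), with 67NR levels of 9.49 to 10.82 in NSG and 6.43 to 7.42 in BALB/c. *Clu* had opposite signs too, at -1.87 and 2.53 (adjusted p = 0.00427). Of 46 matrix genes, 19 passed, all with a lower value in 66cl4, and 27 did not, with list medians of -0.29 in 66cl4 and 0.77 in 67NR tumors. *Fn1* was among the 19 (-1.53 and 0.72). Some increases were seen in 66cl4 and not called in 67NR tumors, and the difference passed for *S100a9* (2.16 and 0.14), *Marco* (1.08 and -0.09), *Npl* (2.10 and -0.08) and *Hnmt* (2.01 and -0.64). Others were called higher in 67NR too, such as *Tspan32* (1.55), *Trim34a* (1.77), *Calml4* (1.83) and *Rab7b* (0.83). Among lymphocyte genes, the difference of *Gzma* was smaller in 66cl4 tumors (-3.83 and -6.54, adjusted p = 0.00885), as was that of *Klrd1*, an NK receptor subunit (-1.23 and -3.91), while that of *Gzmg* was larger (-6.18 and -2.04, adjusted p = 0.0433). The largest differences past the threshold also held *Stk26* (1.51 and -1.45), *Gnai1* (1.63 and -1.19), *Zfp991* (0.12 and -2.61, with 1.78 in 66cl4 from its second probe set) and *Rpl39l*, a ribosomal protein gene. *Rpl39l* differed by 0.29 ± 0.32 SE between hosts in 66cl4 tumors and was at 12.50 to 13.57 in NSG and 6.29 to 7.82 in BALB/c tumors of 67NR, and BALB/c 67NR tumors with BPTF KD held both levels (6.07 to 14.17). Whether the 67NR cells injected into NSG and BALB/c mice were the same could not be worked out from this, which limits each 67NR host effect and each difference between lines given here. The lines also differed in cell number and day of harvest, which cannot be told apart from the line here.

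Skeletal muscle genes were lower in NSG tumors, with 19 of 72 measured past the threshold, against 1.26% of all genes. Tumors of the mammary fat pad lie beside the muscle of the body wall, and sarcomere genes mark any muscle in a sample. The mean of the 72 genes was 5.35, 5.79 and 5.27 in NSG and 7.10, 7.83 and 6.53 in BALB/c tumors (-1.68, exact permutation test, two-sided p = 0.10, the smallest that 3 against 3 allows). NSG replicate 2 was the highest of its host and BALB/c replicate 3 the lowest of its own, without overlap. The 19 called by limma were all lower (median of the list -1.33), and 55 of the 72 were lower without overlap, against 18.5% of all genes. Of the 77 further genes that followed muscle, 4 were called, all lower.

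*Myh4*, the fast myosin heavy chain, was at 3.84, 4.14 and 3.38 in NSG and 9.56, 11.37 and 8.59 in BALB/c tumors (-6.05 ± 0.64 SE, adjusted p = 0.0124). *Acta1*, the skeletal actin, was at 5.43, 8.29 and 5.28 in NSG and 11.03, 12.67 and 10.34 in BALB/c tumors (-5.01 ± 0.90 SE, adjusted p = 0.0427). NSG replicate 2 was the highest NSG tumor for both genes. *Tnnc2* and *Tnnt3*, fast troponin subunits, differed by -5.31 and -4.17 and the light chain *Myl1* by -4.98 (adjusted p = 0.0390, 0.0287 and 0.0441). *Pvalb*, the calcium buffer of fast fibres, was lower by limma (-3.80 ± 0.52 SE), as were *Actn3* (-2.93 ± 0.36 SE) and *Des* (-1.74 ± 0.22 SE, with -0.09 from its second probe set).

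The same genes were lower in NSG hosts among 66cl4 BPTF KD tumors, where 52 of 72 passed (median -1.24), against 6.38% of all genes. They were not so in 67NR controls, where 1 was lower and 4 higher (median -0.05). Those 67NR counts lie near the shares of all genes, 3.93% lower and 3.65% higher. The difference in host effect between the lines passed for 36 of the 72, against 13.3% of all genes, and 35 of the 36 were lower in 66cl4. All 12394 genes, muscle genes included, were also fitted with the muscle mean, which itself separates the hosts, as a covariate. No gene then passed (limma, smallest adjusted p = 0.0866, 292 genes at an unadjusted p under 0.05). All 291, which were chosen in these same tumors, kept their direction. Among 67NR tumors, where the muscle mean overlapped between hosts (5.41 to 5.70 in NSG and 5.41 to 5.50 in BALB/c controls), *Gzma*, *Cd3g*, *Ncr1*, *H2-Ea*, *Cxcl9* and *Ifi44l* were lower in NSG hosts as well, by 6.54, 3.50, 3.29, 3.74, 4.39 and 5.18. These are 6 picked genes, while *Gzmd* and *Gzmg* were not called there (adjusted p = 0.0568 and 0.0898), and 15 of the 291 were called the other way. The part of muscle in the calls of 66cl4 tumors cannot be told apart from the host, since the muscle mean does not overlap between the hosts.

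**Figure D4:**
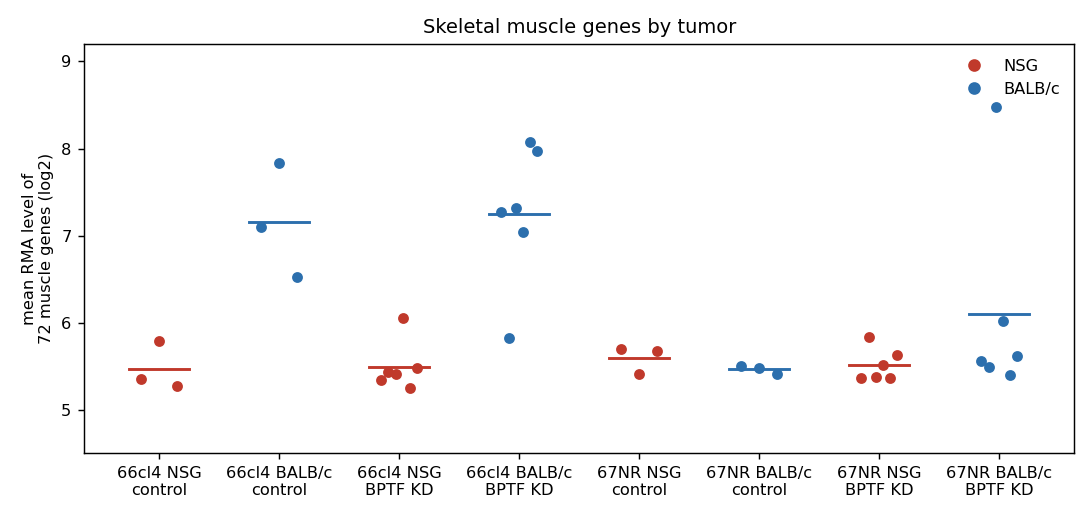
Mean RMA level (log2) of 72 skeletal muscle genes in each of the 36 tumors, NSG (red) left of BALB/c (blue) for each line and shRNA, with lines at group means. The 3 NSG 66cl4 controls lie between 5.27 and 5.79, below the 3 BALB/c ones between 6.53 and 7.83, while 67NR controls of both hosts lie between 5.41 and 5.70.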

How the data were processed

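Tumor RNA was read on Affymetrix mouse arrays, and the deposited values are log2 intensities for 22690 probe sets of 36 tumors, summarized by the authors with RMA (version not given in the sources used here). RMA normalizes arrays to 1 distribution, so a change shared by most genes would not be seen, and it compresses low levels. Platform annotation gave 1 symbol to 20393 probe sets, several to 691 and none to 1606, and 20364 were updated through Entrez identifiers with RefSeq. The brightest probe set stood for each of 12394 genes, 1189 of them from sets that can bind related transcripts. Groups came from the sample labels, and every array column matched a sample.

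NSG was compared with BALB/c in the 6 66cl4 control tumors with limma 3.58.1 (R 4.3.3), calling genes at 0.05 after the Benjamini-Hochberg correction, made over every gene. Differences of host effect were interaction terms over 12 control tumors (line) or 18 66cl4 tumors (BPTF KD). A list mean was tested by exact permutation (scipy 1.17.1). The fit was tested on simulated data with the same spread in both hosts. Unequal spreads, such as those of *Gzmd* (SD 0.15 in NSG and 1.94 in BALB/c tumors), were thus not covered. Tumors of a group are separate samples in the labels, and arrays hold no read depth, so that precision rests on 3 tumors per host.

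Named genes were *Prkdc*, *Bptf* and *H2-Ea*, the 10 largest changes per direction outside muscle, the 5 largest within it, up to 5 genes with the smallest p in each of the 30 lists, and the 5 largest interactions per direction (the 3 smallest p where none passed). Other genes named, such as members that did not pass, were picked as list members after their values were seen. The members and lists were chosen with earlier results of these data known. Alternatives covered the test, the tumors in the fit, low values, normalization, probe sets, weights, RNA integrity, muscle, replicate number, threshold and each tumor left out.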

Additional observations from a re-analysis of the deposited data

Results flagged for a closer look

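The host effect differed by the interaction test of limma between 66cl4 and 67NR control tumors for 1648 of 12394 genes, and that difference is what marks each gene here. Values are the host effect in 66cl4 minus that in 67NR, on the log2 scale, each at an adjusted p under 0.05. Groups of 3 tumors were too small for a test of single outlying tumors.

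Among lymphocyte genes the value was positive, which is a smaller decrease in 66cl4 tumors, for *Gzma* (2.71), *Klrc1* (1.25), *Klrd1* (2.68), *Sh2d1a* (1.07) and *Gimap7* (1.33), and negative for *Gzmg* (-4.14). Among genes of myeloid cells and the largest increases, it was positive for *Tspan32* (1.32), *Klra17* (2.16), *S100a9* (2.02), *Npl* (2.18), *Rbp7* (1.45), *Hnmt* (2.65), *Rab7b* (1.17), *Retsat* (2.23), *Cxcl5* (1.02), *Ppbp* (1.34), *Marco* (1.16), *Cd14* (0.57), *Adgre1* (0.57) and *Cd24a* (1.29). It was negative for the arginase and stromal genes *Arg1* (-5.09), *Clu* (-4.40), *Fn1* (-2.25) and *Snai2* (-1.03). For muscle genes it was negative, with *Myh4* (-5.95), *Tnnc2* (-6.71), *Acta1* (-6.90), *Myl1* (-6.36), *Tnnt3* (-4.74), *Actn3* (-2.66), *Pvalb* (-3.32) and *Des* (-1.60). Of the remaining genes, *Stk26* (2.97), *Gnai1* (2.81) and *Zfp991* (2.72) were above 0 and *Rpl39l* (-5.42) below. In a fit of all 36 tumors 74 genes differed in host effect. The cause of these differences was not tested, and line, cell number and day of harvest cannot be told apart. Whether the 67NR cells were the same in both hosts is not known, as *Rpl39l* was at 12.50 to 13.57 in NSG and 6.29 to 7.82 in BALB/c 67NR control tumors.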

How the results depend on the processing

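Against 314 calls (158 higher and 156 lower in NSG), the methods' t-test gave 0 (0 and 0; 2789 unadjusted, smallest adjusted p = 0.0587) and the muscle covariate 0 (0 and 0; 292 unadjusted). All probe sets gave 749 (411 and 338), the RNA integrity covariate 1375 (663 and 712), array weights 4922 (2288 and 2634), an adjusted p of 0.01 12 (6 and 6) and of 0.10 2333 (1127 and 1206). Leaving out 1 tumor gave 27 (without NSG replicate 2) to 2370 (without BALB/c replicate 1), with 12 to 1161 higher and 15 to 1209 lower. The other settings, including the fit of all 36 tumors (318) and quantile normalization (317), stayed within 1.5 times. Similar counts did not hold the same genes. Of the 291 called outside muscle, 148 were still called in the fit of all 36 tumors and 251 after quantile normalization. Genes named above that the fit of all 36 tumors no longer called include *Cd3d*, *Il2rb*, *Pdcd1* and *Arg1* (limma, adjusted p = 0.244, 0.124, 0.408 and 0.227). The differences in host effect between lines, 1648, numbered 74 in the fit of all 36 tumors and 800 to 2923 without 1 tumor. Those between control and BPTF KD, 0, numbered 0 to 6 without 1 tumor (4 without NSG replicate 3 and 6 without BALB/c replicate 1). The causes were not tested.

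With the replicate number as a block there were 2268 calls (1070 and 1198), and 1694 differences between lines. Whether the numbers pair the tumors is not known, since the labels give no shared day or litter. Deviations of tumors with the same number correlated at 0.466, 0.0208 and 0.277. These values cannot decide it, as tumors with different numbers were not compared.

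Over all alternatives, 2846 values of named genes held 2202 with the same direction and side of the threshold, 371 no longer past it, 250 newly past it, 23 untested ones that moved and 0 that reversed. Of 240 list medians, 232 moved by less than the spread and 8 by more. The muscle mean ranged from -2.0 to -1.35 without 1 tumor. Dim genes, such as granzymes in NSG tumors, have folds limited by background, and 114 of the 291 called genes have several probe sets, of which 96 had all sets in 1 direction.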

Other observations

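Zinc finger genes named Zfp, a group chosen after its values were seen and so not tested as a group, were higher in NSG tumors in 11 cases and lower in 0 of 173 measured (median 0.16, against -0.02 over all genes, of which 1.27% were higher and 1.26% lower). *Zfp53* was at 9.57, 9.26 and 9.44 in NSG and 8.35, 7.88 and 8.33 in BALB/c tumors (1.24, adjusted p = 0.0277 by limma). *Zfp709*, *Zfp930* and *Zfp758* differed by 1.72, 1.55 and 1.49. In 66cl4 BPTF KD tumors 42 of the 173 were higher and 1 lower (median 0.13), against 4.67% and 6.38% of all genes. In 67NR control tumors 8 were higher and 3 lower (median 0.02), against 3.65% and 3.93% of all genes, so that these counts lie near or below those shares.

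Some genes outside the lists were called however the tumors were left out. *Apoc2*, an activator of lipoprotein lipase, was at 5.24, 5.23 and 5.36 in NSG and 7.23, 7.27 and 7.71 in BALB/c tumors (-2.13, adjusted p = 0.00280 by limma). *Pacc1*, a proton-activated chloride channel, was at 9.07, 9.04 and 9.13 in NSG and 7.55, 7.31 and 7.28 in BALB/c tumors (1.70, adjusted p = 0.00278). *Epsti1*, *L3hypdh*, *Mpp7* and *Ralgps2* were higher by 1.44, 1.63, 1.5 and 1.61. Hosts differ in strain as well as in immune cells, and the 2 cannot be told apart here.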
